A study of Rattus norvegicus with 24 samples.

Results

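Expression of 5 genes of dopamine and serotonin signalling was followed in the medial prefrontal cortex of juvenile rats: the dopamine receptor genes Drd1 and Drd2, Ppp1r1b, which acts downstream of dopamine receptors, and the serotonin receptor genes Htr2a and Htr1a. They were chosen by name and Ensembl ID for their place in these pathways, and they are 5 of the 32883 gene IDs in each table. Sprague Dawley offspring were taken at postnatal day 45, after birth had been induced in the dam with oxytocin or after saline, and total RNA of both hemispheres was used, with oligo-dT, for sequencing. The labels give 24 libraries in 4 groups of 6: oxytocin male, saline male, oxytocin female and saline female. They name no litter and no dose. A library is called below by its labelled group and replicate number, such as saline female 1. The name of the deposited file gave the other sex and the other treatment than the label in 24 of 24 libraries, so under the file names the comparison given for labelled males would be that of females with its sign turned, and the reverse, and the difference between the sexes would turn its sign. The interaction of treatment and sex would keep its sign. Levels over all libraries and correlations between animals within a group do not depend on this.

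Dopamine from the ventral tegmental area and serotonin from the dorsal raphe both reach the medial prefrontal cortex and adjust the firing of its pyramidal cells and interneurons. Drd1 encodes a receptor that couples to stimulatory G proteins and raises cyclic AMP, and Drd2 encodes one that couples to inhibitory G proteins and lowers it. Ppp1r1b encodes a dopamine- and cyclic AMP-regulated phosphoprotein, an inhibitor of protein phosphatase 1 when protein kinase A has phosphorylated it, so that it passes on the signal of dopamine receptors. Htr2a encodes an excitatory serotonin receptor coupled to phospholipase C, abundant on cortical pyramidal neurons, and Htr1a an inhibitory one that also serves as autoreceptor in the raphe. In the striatum, which lies beside the frontal cortex, Drd1 and Drd2 mark separate sets of projection neurons, both of which make much Ppp1r1b.

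Libraries held 15.9 to 24.3 M estimated reads, and 14930 genes had enough reads to be tested, among them 5 of the 5 members. In these libraries the members had 54 (Drd2, oxytocin male 6) to 5008 reads (Ppp1r1b, saline female 1), far above the 3 reads that a count of 0 allows. No symbols accompany the Ensembl IDs, and the names of the 5 members come from the rule that chose them, so markers of cortical, striatal or glial cells could not be looked up to check the dissected tissue. In whole-tissue RNA, fewer cells of a type and less RNA per cell cannot be told apart. Saline female 1 was the highest of 24 libraries for Drd1, Drd2 and Ppp1r1b, and stood apart from the rest of its group for Drd2 and Ppp1r1b. Results that rest on it are given with and without it.

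The sequence before the start of Drd2, the member that varied most between animals, is shown from RefSeq's promoter table for assembly GRCr8, a later assembly than the Rnor_6.0 of the files. The 250 bases before the annotated start, at chr8:58605153-58605402 on the plus strand, are given with GC boxes (GGGCGG on either strand) in capitals.
Drd2: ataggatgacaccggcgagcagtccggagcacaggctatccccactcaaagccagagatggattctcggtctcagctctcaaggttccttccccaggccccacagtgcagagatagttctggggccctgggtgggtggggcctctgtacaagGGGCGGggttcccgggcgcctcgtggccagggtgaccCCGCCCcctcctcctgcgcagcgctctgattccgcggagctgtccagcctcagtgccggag
The Drd2 window held 2 matches to the GC box, and 30.5% of 33469 promoter windows of that length held at least 1. It held 0 matches to the E box (CANNTG), which 65.5% of windows had, and 0 to the TATA box (TATAAA), the CCAAT box (CCAAT) and the cyclic AMP response element (TGACGTCA). Matches were sought on both strands, and the letters say nothing of binding. For Drd1 the table's window lies inside the annotated gene, which begins 866 bases ahead of it, so it is not shown.

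Levels were compared between genes in TPM, transcript abundances scaled for gene length and library total. Ppp1r1b was the most abundant member, at 125 ± 27.2 TPM (SD, n = 24), and ranked between 568 and 1752 among all gene IDs of a library. Htr2a followed at 23.0 ± 4.30 TPM, then Htr1a at 13.5 ± 2.20, Drd1 at 6.19 ± 1.44 and Drd2 at 3.17 ± 1.21 TPM (SD, n = 24 each). This order held in 24 of 24 libraries. Between libraries the ranges of neighbours overlapped for Htr2a and Htr1a (14.7 to 31.5 against 8.54 to 18.1 TPM), for Htr1a and Drd1 (3.24 to 9.63 TPM) and for Drd1 and Drd2 (1.72 to 7.34 TPM). Ppp1r1b, from 91.6 to 232 TPM, overlapped with none of the other members. Each serotonin receptor gene was thus above both dopamine receptor genes in TPM in all 24 libraries.

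Within a library, neighbours in this order differed by these ratios. Drd1 exceeded Drd2 by a median of 1.97-fold, from 1.31-fold in oxytocin male 3 to 3.09-fold in saline male 3. Htr2a exceeded Htr1a by a median of 1.66-fold, from 1.13-fold in saline male 1 to 2.88-fold in saline female 2. Htr1a exceeded Drd1 by a median of 2.14-fold, and this ratio was lowest, 1.12-fold, in saline female 1. Ppp1r1b exceeded Htr2a by a median of 5.19-fold, and this ratio was highest, 13.4-fold, again in saline female 1. TPM rests on the effective length that the deposited tables give each gene in each library. It ran from 3264 to 3713 bases for Htr2a and from 2388 to 2654 bases for Drd2. For Drd1 it was 1881 to 1956 bases and for Htr1a 1196 to 1231 bases. In reads not scaled for length the order was not the same everywhere. Saline female 1 had 246 reads of Drd1 and 243 of Drd2 against 169 of Htr1a, and oxytocin male 3 had 187 of Drd2 against 185 of Drd1.

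**Figure D1:**
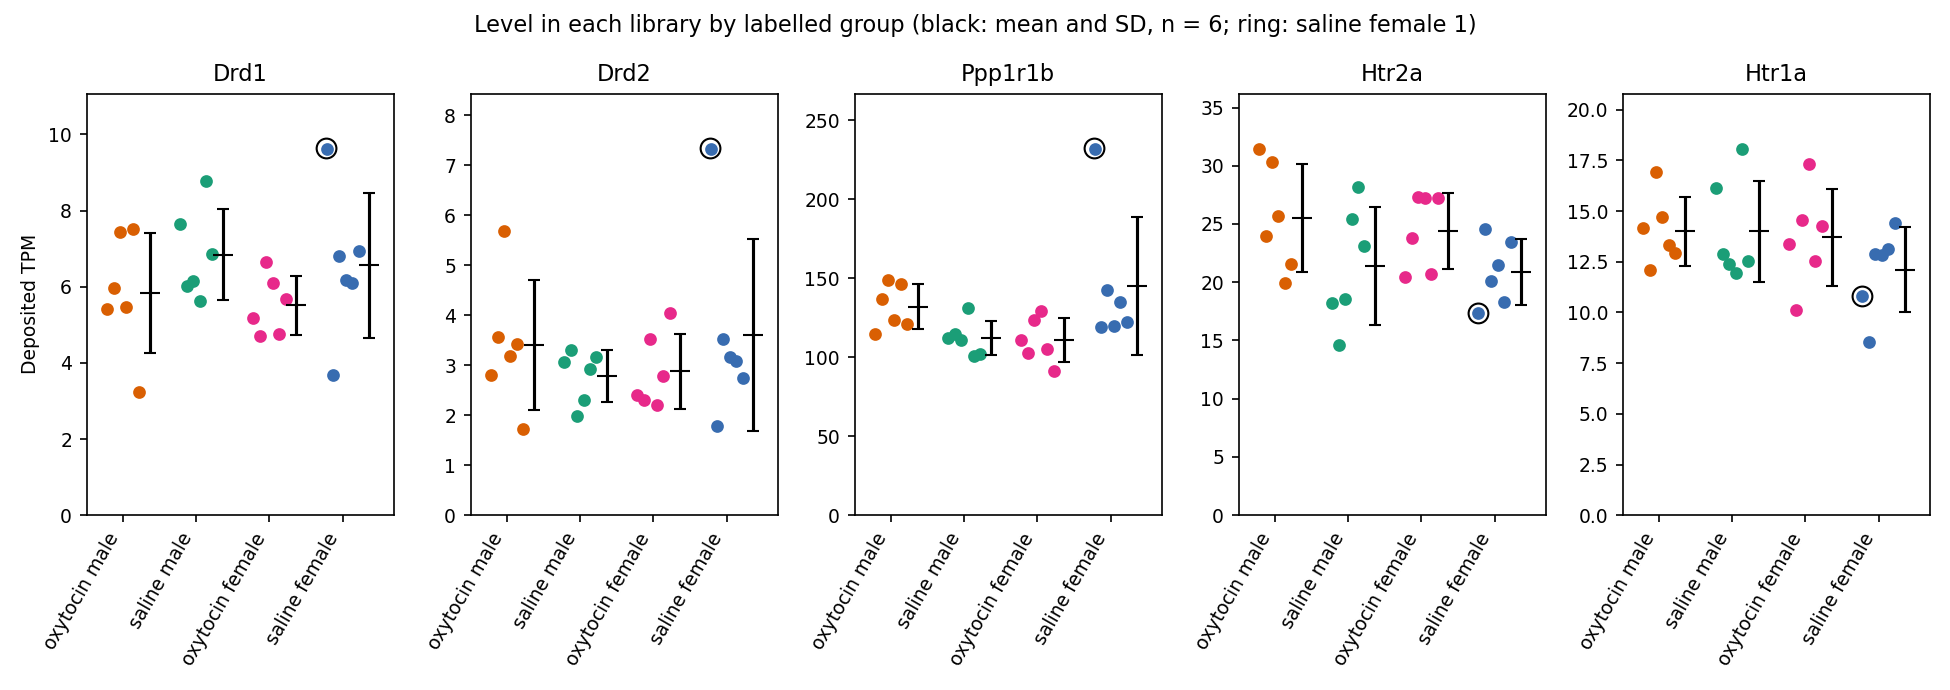
Deposited TPM (vertical axes, starting at 0, a different scale in each panel) of Drd1, Drd2, Ppp1r1b, Htr2a and Htr1a in 24 libraries by labelled group; points are libraries, black bars the mean and SD of 6. The ringed library, saline female 1, is the highest of all for Drd1, Drd2 and Ppp1r1b, at 9.63, 7.34 and 232 TPM, and lies low for Htr2a and Htr1a.

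Drd1 (ENSRNOG00000023688), the stimulatory dopamine receptor gene, had its lowest, median and highest level at 3.24, 5.71 and 7.53 TPM in oxytocin male libraries. In saline male libraries these were 5.62, 6.50 and 8.78 TPM. In oxytocin female libraries they were 4.71, 5.43 and 6.65 TPM, and in saline female libraries 3.69, 6.50 and 9.63 TPM. The groups overlapped throughout, and the 2 lowest libraries, oxytocin male 6 and saline female 2, came from different groups. Drd1 was lower in oxytocin than in saline libraries by values that did not pass the test, with a log2 fold change of −0.21 in labelled males (95% interval −0.60 to 0.17; edgeR adjusted p = 0.741) and −0.27 in labelled females (−0.66 to 0.12; adjusted p = 0.581). Single libraries moved both values: that in labelled females was −0.096 without saline female 1 and −0.393 without saline female 2, and that in labelled males was −0.089 without oxytocin male 6.

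Drd2 (ENSRNOG00000008428), the inhibitory dopamine receptor gene, was the scarcest member and the one that varied most. Its lowest, median and highest level were 1.72, 3.31 and 5.69 TPM in oxytocin male libraries and 1.99, 2.99 and 3.30 TPM in saline male libraries. They were 2.19, 2.60 and 4.04 TPM in oxytocin female libraries and 1.79, 3.12 and 7.34 TPM in saline female libraries. The highest library of all was saline female 1 and the next oxytocin male 3, while the lowest were oxytocin male 6 and saline female 2. The log2 fold change of oxytocin against saline was 0.29 in labelled males (95% interval −0.29 to 0.86; edgeR adjusted p = 0.776) and −0.36 in labelled females (−0.93 to 0.22; adjusted p = 0.627). Without saline female 1 the value in labelled females was −0.002, and without oxytocin male 3 that in labelled males was 0.08.

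Ppp1r1b (ENSRNOG00000028404), the phosphatase inhibitor gene, had its lowest, median and highest level at 115, 130 and 149 TPM in oxytocin male libraries and at 101, 112 and 131 TPM in saline male libraries. In oxytocin female libraries these were 91.6, 108 and 129 TPM, and in saline female libraries 119, 129 and 232 TPM. Medians were thus higher in oxytocin than in saline libraries of labelled males and lower in those of labelled females, with overlap in both. In CPM, reads scaled to the library total, saline female 1 was at 255 against 135 ± 9.27 in the other 5 saline female libraries (SD). The log2 fold change was 0.24 in labelled males (95% interval −0.05 to 0.53; edgeR adjusted p = 0.549) and −0.39 in labelled females (−0.68 to −0.10; unadjusted p = 0.0110, adjusted p = 0.285). Leaving out saline female 1 made it −0.19 in labelled females (edgeR adjusted p = 0.579). In labelled males it stayed at 0.24 without that library, but the test moved, since the fit shares 1 spread among the 4 groups. The unadjusted p in labelled males was then under 0.05, and it still failed the correction over all genes (edgeR adjusted p = 0.193).

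Htr2a (ENSRNOG00000010063), the excitatory serotonin receptor gene, had its lowest, median and highest level at 19.9, 24.8 and 31.5 TPM in oxytocin male libraries and at 14.7, 20.8 and 28.2 TPM in saline male libraries. In oxytocin female libraries they were 20.4, 25.5 and 27.3 TPM, and in saline female libraries 17.3, 20.8 and 24.6 TPM. The oxytocin medians were the higher ones in both labelled sexes, and the groups overlapped. The log2 fold change was 0.27 in labelled males (95% interval −0.04 to 0.57; edgeR adjusted p = 0.534) and 0.22 in labelled females (−0.09 to 0.53; adjusted p = 0.565). Without saline male 2, the lowest library, the value in labelled males was 0.164. Averaged over the labelled sexes it was 0.24 (0.02 to 0.46; unadjusted p = 0.0310), which failed the correction over all genes (adjusted p = 0.257).

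Htr1a (ENSRNOG00000010254), the inhibitory serotonin receptor gene, had the lowest spread of the members over all libraries. Its SD of log2 CPM around the group means was 0.217 against 0.237 for Ppp1r1b, but with saline female 1 left out Ppp1r1b was the more even, at 0.149 against 0.221. Its lowest, median and highest level were 12.1, 13.8 and 16.9 TPM in oxytocin male libraries and 11.9, 12.7 and 18.1 TPM in saline male libraries. They were 10.1, 13.8 and 17.3 TPM in oxytocin female libraries and 8.54, 12.9 and 14.4 TPM in saline female libraries. The log2 fold change of oxytocin against saline was 0.01 in labelled males (95% interval −0.23 to 0.26; edgeR adjusted p = 0.983) and 0.18 in labelled females (−0.07 to 0.43; adjusted p = 0.556). The value in labelled females was 0.096 without saline female 2, and that in labelled males ranged from −0.048 to 0.074 with single libraries left out. Saline female 2, the lowest library for Htr1a, was also second lowest for Drd1 and Drd2.

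The series asked whether oxytocin at birth changed cortical expression in either sex. In edgeR's quasi-likelihood fit over all genes, with calls at an adjusted p of at most 0.05, 0 of the 5 members were called in labelled males, where 0.161% of tested genes were, and 0 of 5 in labelled females, where 0.0067% were. Averaged over the labelled sexes 0 of 5 were called (0.362% of genes), and between labelled males and females 0 of 5 (0.228% of genes). At an unadjusted p under 0.05 there were 0 members in labelled males (11.2% of genes), 1 in labelled females, Ppp1r1b (12.4% of genes), 1 on average, Htr2a (16% of genes), and 0 between the labelled sexes (9.99% of genes). DESeq2 and limma called 0 members in each of these comparisons. With the further limit of a 2-fold change that the series' design text sets, 0 of 5 members were called in labelled males (0.0134% of genes), labelled females (0% of genes), on average (0.0134% of genes) and between the labelled sexes (0.067% of genes). The members' median log2 fold change was 0.24 in labelled males, with 4 of 5 above 0, and −0.27 in labelled females, with 2 of 5 above 0. The median in labelled females rested on saline female 1 and was −0.002 without it, again with 2 of 5 above 0. Over all tested genes the medians were −0.001 and 0.001. For 0 of the 5 members did oxytocin and saline libraries separate without overlap, in labelled males (1.19% of genes) or in labelled females (0.73% of genes).

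The intervals limit how large a difference these libraries leave room for. In labelled males the 95% interval of the ratio of oxytocin to saline ran from 0.853 to 1.19 for Htr1a, from 0.659 to 1.13 for Drd1, from 0.968 to 1.44 for Ppp1r1b, from 0.971 to 1.49 for Htr2a and from 0.818 to 1.82 for Drd2. In labelled females it ran from 0.955 to 1.34 for Htr1a, from 0.633 to 1.09 for Drd1, from 0.626 to 0.934 for Ppp1r1b, from 0.940 to 1.44 for Htr2a and from 0.523 to 1.17 for Drd2. Each of these 10 intervals lies inside a 2-fold change in either direction. They are not adjusted for the number of genes tested, and they rest on a spread shared by the 4 groups, saline female 1 included.

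Whether the labelled sexes differed in their response was tested with the interaction. Of the 5 members 0 were called by edgeR, where 0% of tested genes were, and 0 by DESeq2 or limma. DESeq2 called 2 genes in all, none of them a member. Ppp1r1b had the smallest unadjusted p, 0.00426, which put it at rank 111 of 14930 genes, in a comparison where 7.29% of genes were under 0.05. Its response in labelled males exceeded that in labelled females by 0.63 on the log2 scale (95% interval 0.22 to 1.04; edgeR adjusted p = 0.532). With saline female 1 left out the difference was smaller, 0.43. Its unadjusted p in edgeR was then lower than with all libraries, but it still failed the correction over all genes (adjusted p = 0.622). For Drd2 the difference was 0.64 (−0.17 to 1.46; edgeR adjusted p = 0.765) and 0.29 without saline female 1. Drd1, Htr2a and Htr1a had interactions of 0.05, 0.05 and −0.17, with adjusted p of 0.982, 0.980 and 0.860.

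Between the labelled sexes, averaged over treatment, the log2 fold change of males against females lay between −0.08 (Drd2) and 0.12 (Htr1a). The 95% interval for Htr1a was −0.05 to 0.29 (edgeR adjusted p = 0.666), and that for Drd2, the widest, −0.49 to 0.33 (adjusted p = 0.933).

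**Figure D2:**
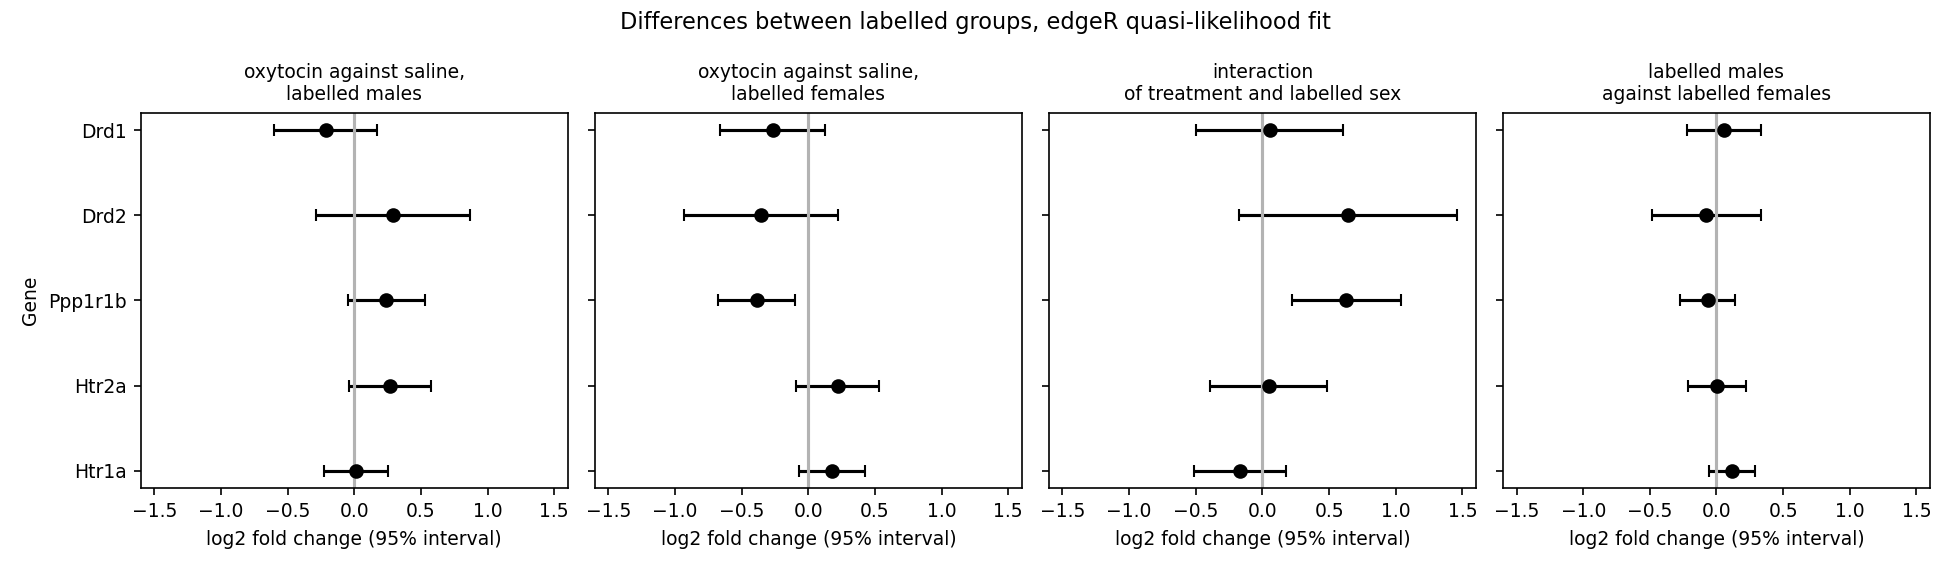
Log2 fold change (horizontal axes) of the 5 members with 95% intervals from the edgeR fit, in 4 comparisons of labelled groups. In these 4 comparisons Ppp1r1b is the member whose unadjusted interval lies off 0, in labelled females (−0.68 to −0.10) and in the interaction (0.22 to 1.04); no member passed at an adjusted p of 0.05.

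With the 4 groups pooled, the members varied around their group means more than most genes of their level. The SD of log2 CPM around the group means was 0.483 for Drd2, 0.350 for Drd1, 0.270 for Htr2a, 0.237 for Ppp1r1b and 0.217 for Htr1a. Among the 200 tested genes nearest in mean level, the median SD was 0.211 for Drd2 and 0.184 for Drd1, and 96% and 94% of these genes had a lower SD than the receptor. For Htr2a and Ppp1r1b the nearest genes had a median SD of 0.0868 and 0.0809, and 97.5% and 98% of them varied less. Htr1a stood closer to its neighbours, with a median SD of 0.168 among them and 82% below it. The biological coefficient of variation, which leaves out counting error, was 32.0% for Drd2, 21.6% for Drd1, 17.6% for Htr2a, 16.5% for Ppp1r1b and 13.3% for Htr1a.

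This spread was unevenly placed. For Ppp1r1b it rested largely on saline female 1: without it the SD was 0.149 in place of 0.237, though 92.5% of the nearest genes were still lower. For Drd2 the SD without that library was 0.396, and for Drd1 0.314. For Htr2a it was 0.275 without it, and the male groups were the more variable ones. The SD of Htr2a was 0.378 in saline male and 0.300 in oxytocin male libraries, against 0.175 in saline female and 0.168 in oxytocin female libraries. For Drd1 the SD was 0.460 in saline female and 0.449 in oxytocin male libraries, against 0.224 in saline male and 0.167 in oxytocin female libraries. For Drd2 these were 0.661 and 0.531, against 0.297 and 0.355.

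Against the mean of the other 5 saline female libraries, Drd2 was 2.66-fold higher in saline female 1 (12.4 against 4.64 ± 1.02 CPM, SD), Ppp1r1b 1.89-fold and Drd1 1.76-fold (12.5 against 7.11 ± 1.47 CPM, SD). The serotonin receptor genes did not share this, with 0.880-fold of that mean for Htr2a and 0.922-fold for Htr1a, at ranks 20 and 22 of 24. Over all tested genes, saline female 1 exceeded every other library at least 1.5-fold in 10 genes, Ppp1r1b among them. The other libraries did so in 0 to 61 genes, the 61 being in saline female 5. Its total of 19.6 M reads lay within the range of the others. Whether tissue from the neighbouring striatum had a part in the level of these genes was not tested, since other striatal genes could not be looked up.

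Co-variation between animals was measured on log2 CPM after each group's mean had been removed, over 24 libraries, for all 10 pairs of members. Drd1 and Drd2 varied together, with Pearson r = 0.82 (p = 0.00029 by two-sided permutation within groups, adjusted p = 0.0029 for the 10 pairs) and Spearman rho = 0.63 (permutation p = 0.00247, adjusted p = 0.0247). This was the only pair that passed by Pearson r. The relation leaned on its ends. Oxytocin male 6 and saline female 2 were lowest in both genes, and without these 2 libraries, the farthest from the median of Drd1, r was 0.70 (n = 22, permutation p = 0.00521). With saline female 1 left out r was 0.755 (permutation, adjusted p = 0.007 over 10 pairs), but without all 3 of these libraries it was 0.51 and no longer passed (permutation test, adjusted p = 0.228).

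Within single groups of 6, r of Drd1 and Drd2 was 0.95 in saline female libraries (exact permutation test, two-sided p = 0.0389) and 0.90 in oxytocin male libraries (exact p = 0.0125). It was 0.41 in saline male (exact p = 0.390) and 0.41 in oxytocin female libraries (exact p = 0.392). All 4 were above 0, and adjusted over the 40 tests of pairs within groups none passed, the smallest adjusted p being 0.153. The larger values were in the groups that hold the 3 libraries at the ends. After library totals had been regressed out of both genes, r over the 24 libraries was 0.82.

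Among all tested genes, Drd1 was the one closest to Drd2, first of 14929 by r, with all libraries and without saline female 1. Seen from Drd1, Drd2 ranked 2 of 14929 with all libraries and 20 without saline female 1. An r of at least 0.5 with Drd2 was reached by 0.911% of genes, and with Drd1 by 2.84%. The genes that reached it were shared in part: 78 were common to both receptors, 58.2% of the 134 for Drd2 and 18.5% of the 421 for Drd1. Both lists come from the same libraries in which the 2 receptors had r = 0.82, so this overlap is no separate result.

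**Figure D3:**
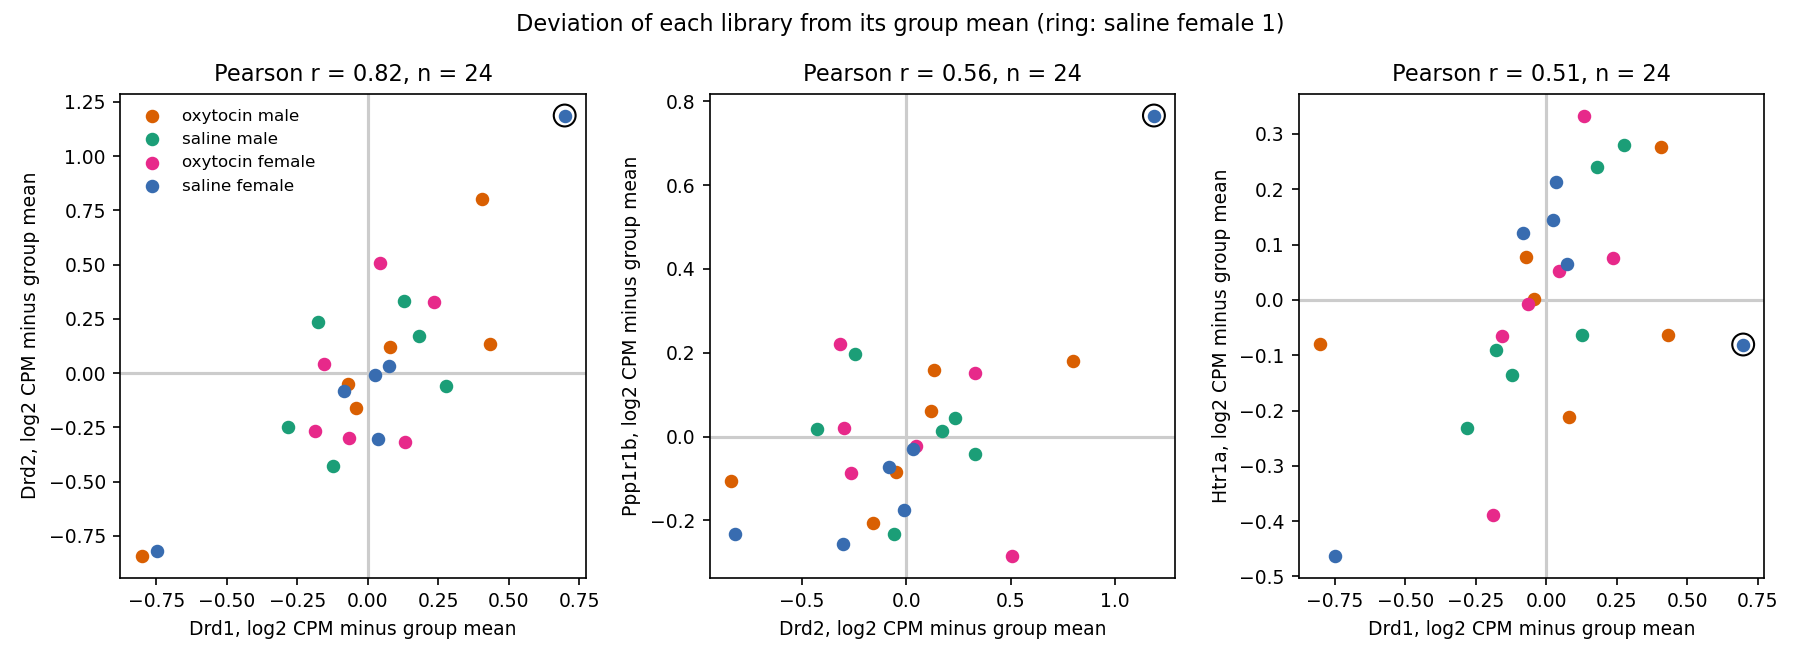
Deviation of each library from its group mean in log2 CPM, for Drd1 and Drd2 (left), Drd2 and Ppp1r1b (middle) and Drd1 and Htr1a (right); points are 24 libraries coloured by labelled group. Saline female 1 (ring) is at the upper right in the first 2 panels and below 0 for Htr1a in the third; without it r of Drd2 and Ppp1r1b falls from 0.56 to 0.18.

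Ppp1r1b followed the dopamine receptors in 1 library more than across animals. With all libraries its r was 0.56 with Drd2 (permutation p = 0.0438, adjusted p = 0.124 over 10 pairs) and 0.53 with Drd1 (permutation p = 0.0498, adjusted p = 0.124), and rho was 0.31 and 0.34. Leaving out saline female 1 gave r of 0.18 with Drd2 and 0.27 with Drd1 (permutation test, adjusted p = 0.670 and 0.596). Without saline female 1 and oxytocin male 3, the libraries farthest from the median of Drd2, r of Drd2 and Ppp1r1b was 0.03 (n = 22, permutation p = 0.910). The relation rests on those libraries.

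Within groups of 6, r of Drd2 and Ppp1r1b was 0.93 in saline female (exact permutation p = 0.0153) and 0.72 in oxytocin male libraries (exact p = 0.0875). It was −0.21 in saline male (exact p = 0.708) and −0.47 in oxytocin female libraries (exact p = 0.362). The groups also differed in sign for Drd1 and Ppp1r1b. In saline male libraries r was −0.85 (exact p = 0.0125 by permutation, and 0.153 once adjusted for the 40 tests). It was 0.79 in saline female (exact p = 0.138), 0.70 in oxytocin male (exact p = 0.111) and 0.48 in oxytocin female libraries (exact p = 0.343). Saline male 5 had the highest Drd1 of its group, 8.78 TPM, and the lowest Ppp1r1b, 101 TPM, whereas saline male 4 had the lowest Drd1, 5.62 TPM, and the highest Ppp1r1b, 131 TPM. A difference between the groups in r was not tested.

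Htr1a and Drd1 did not pass the test by Pearson r with all libraries and passed by rank. Their r was 0.51 (permutation p = 0.0162, adjusted p = 0.0810 over 10 pairs) and rho 0.56 (permutation p = 0.00920, adjusted p = 0.0460). Without oxytocin male 6 and saline female 2, r was 0.35 (n = 22, permutation p = 0.103), so the relation leaned on them. Saline female 1 lay off it, high in Drd1 and low in Htr1a, and without that library r was 0.64 (permutation test, adjusted p = 0.007 over 10 pairs). All 4 groups had r above 0, from 0.34 in oxytocin male to 0.90 in saline male libraries (exact permutation p = 0.499 and 0.00556). Adjusted over the 40 tests within groups, these exact p were 0.703 and 0.153, so neither passed. With Drd2, Htr1a had r = 0.29 (permutation p = 0.209, adjusted p = 0.350).

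Within groups of 6, r of Htr2a with Drd1 ranged from −0.69 in saline female to 0.69 in oxytocin female libraries (exact permutation p = 0.115 and 0.164). With Drd2 it ranged from −0.66 in saline female to 0.52 in oxytocin male libraries (exact permutation p = 0.143 and 0.292). Over the 24 libraries Htr2a stood by itself among the members. Its r was 0.10 with Drd1, 0.03 with Drd2, 0.12 with Htr1a and −0.23 with Ppp1r1b, with adjusted p between 0.350 and 0.925 (permutation tests, 10 pairs). It nevertheless had many companions among the other genes: 5.20% of tested genes reached an r of at least 0.5 with it, the largest share of the 5 members, and 92 genes an r of at least 0.7. Of those at 0.5 or more, 0 were shared with the genes that followed Drd2, 0 with those that followed Ppp1r1b, 10 with those that followed Drd1 (1.29% of the 777 for Htr2a and 2.38% of the 421 for Drd1) and 28 with those that followed Htr1a (3.60% of the 777 and 5.59% of the 501 for Htr1a). The share for Htr1a is close to the 5.20% of all tested genes. These lists come from the same libraries as r between the members, so the counts shared are no separate result.

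**Figure D4:**
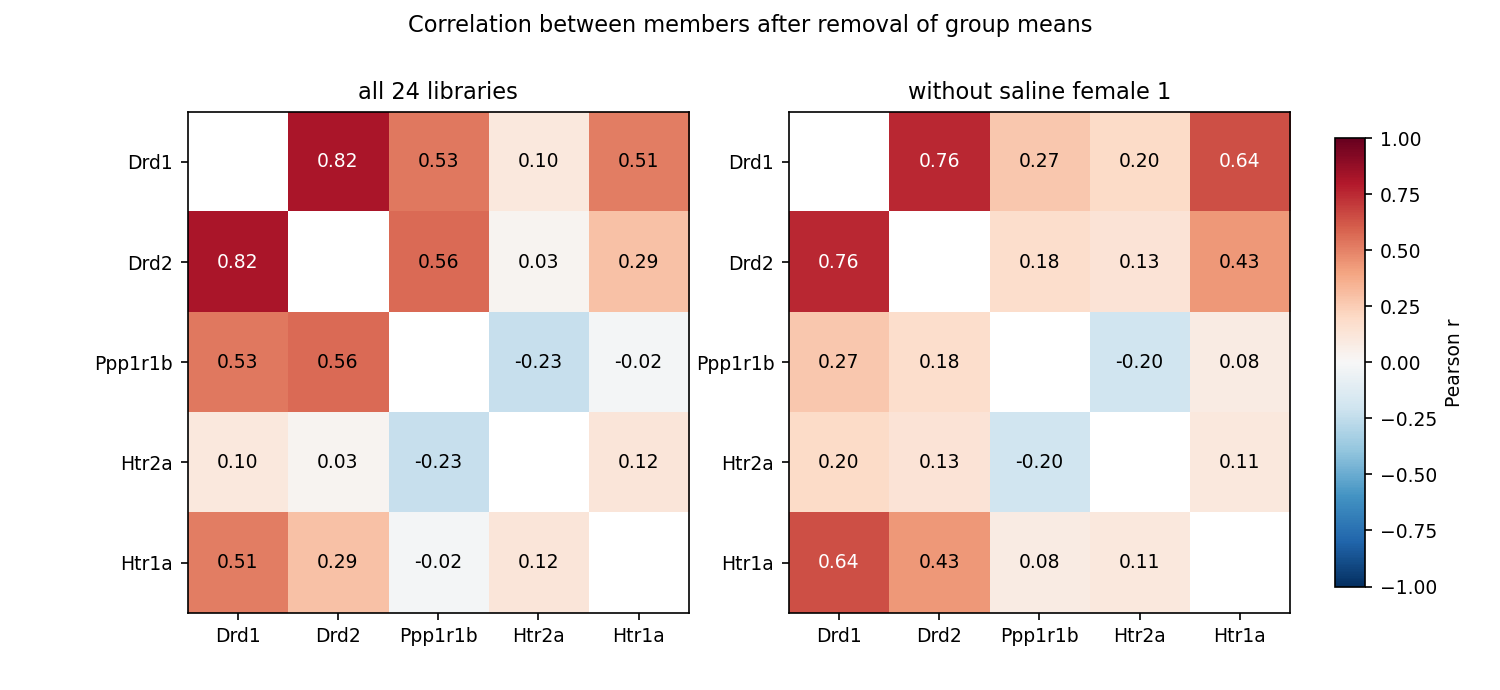
Pearson r between members after removal of group means (colour scale from −1 to 1), with all 24 libraries (left) and without saline female 1 (right). Drd1 and Drd2 keep an r of 0.755 on the right, Ppp1r1b falls to 0.27 and 0.18 with them, and Drd1 and Htr1a rise from 0.51 to 0.64.

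Drd1 had the highest mean r with the other members, 0.492, and the genes outside the set most like it were therefore sought. They carry no name in the tables. ENSRNOG00000000412 (mean 73.2 CPM) had r = 0.83 with Drd1, 0.55 with Drd2 and 0.65 with Htr1a. ENSRNOG00000051487 (mean 10.3 CPM) had r = 0.80 with Drd1, 0.50 with Drd2 and 0.61 with Htr1a. The genes that ran most against Drd1 were far more abundant, ENSRNOG00000027098 (mean 539 CPM, r = −0.83) and ENSRNOG00000006204 (mean 263 CPM, r = −0.82). Without saline female 1 these 4 values were 0.83, 0.80, −0.80 and −0.88, so that none of them rested on that library. As values picked from all tested genes they describe these libraries only.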

How the data were processed

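Estimated counts and TPM per Ensembl gene were deposited by the authors, 1 table per library, per the file headers. Per the submitters' processing notes, bcl2fastq, DRAGEN and Rnor_6.0 were used; versions, strand setting and annotation are not stated there. Counts were rounded; those of the members were whole in 24 of 24 libraries. Groups came from the labels. The members and lists were chosen with earlier results of these data known, and the other lists could not be matched to IDs (0 of 47357 reference rows carry one). Genes outside the set were named by highest and lowest r with the member of highest mean r. Differences were tested with edgeR 4.0.16 (R 4.3.3): filterByExpr (minimum count 10, total 15), TMM (factors 0.971 to 1.03), 1 mean per group, robust quasi-likelihood, Benjamini-Hochberg over 14930 genes. Log2 CPM used a prior count of 2. Pairs were tested with 100000 permutations within groups, or all 720 pairings within a group of 6. Both procedures were tested on simulated data. The labels do not tie replicates to litters, so p-values measure the spread between these libraries. Intervals at 0 reads cover counting error only. Alternatives used DESeq2 1.42.0, limma 3.58.1, other scalings, filters and left-out libraries; those leaving out 2 or 3 libraries together were chosen after seeing the data.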

Additional observations from a re-analysis of the deposited data

Results flagged for a closer look

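In the 20 sets of 6 libraries (5 members in 4 groups), 1 library lay far from the other 5 in 2 sets, and chance gives about 1 such set. Both concern saline female 1. For Drd2 it stood at 12.4 CPM, the next saline female library being at 5.49 CPM, and for Ppp1r1b at 255 CPM, the next being at 147 CPM. In that group Drd1 was also highest in this library, at 12.5 CPM, but not far enough from the rest to be listed.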

How the results depend on the processing

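Of 810 values of the members' 25 comparisons under other settings, 0 were called and the smallest adjusted p was 0.152. Signs turned in 39 values of 9 comparisons, none over 0.202 in size; the cause was not tested here or below. Limma gave 0.074 (Drd2, average), −0.015 (Drd1, interaction), 0.003 (Drd2, sex) and −0.010 (Htr2a, sex). Without saline female 1 and oxytocin male 3 together, values were −0.050 (Htr1a, males), 0.037 (Drd2, average), 0.006 (Ppp1r1b, average), −0.202 (Drd1, interaction), 0.013 (Ppp1r1b, sex) and −0.044 (Htr2a, sex). Leaving out single libraries gave ranges of −0.048 to 0.074 (Htr1a, males), −0.138 to 0.142 (Drd2, average), −0.100 to 0.027 (Ppp1r1b, average), −0.119 to 0.179 (Drd1, interaction), −0.056 to 0.118 (Htr2a, interaction), −0.006 to 0.143 (Drd1, sex), −0.180 to 0.1 (Drd2, sex), −0.094 to 0.033 (Ppp1r1b, sex) and −0.039 to 0.055 (Htr2a, sex). The number of all genes called, 24 in males, 1 in females, 54 on average, 0 for the interaction and 34 for sex, depended on the tool: DESeq2 called 157, 45, 350, 2 and 102. Limma called 121 in males, 211 on average and 69 for sex. Of the genes called in males 22 of 24 were higher by edgeR, 120 of 157 by DESeq2, 99 of 121 by limma and 17 of 21 with effective-length offsets. Fits within 1 labelled sex called 116 in males and 0 in females. Without those 2 libraries 0 were called in males and 2 on average. Single libraries left out gave 0 to 106 in males, 1 to 6 in females, 9 to 334 on average and 29 to 60 for sex; the lowest and highest counts in males were without oxytocin male 1 and without saline female 2.

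With the replicate number as a block, 9 genes were called in males and 1 for the interaction, and 0 members. Whether the numbers pair the libraries was not tested. The mean correlation of 36 same-numbered pairs was 0.0269, against −0.00539 for pairs with other numbers, and 3 of the 36 were over 0.1. Of 24 libraries, 10 were closest to their own number among the 6 numbers. This is more than the 1 in 6 that chance would give, and the excess was not tested.

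Drd1 and Drd2 passed in 31 of 32 other settings, the exception being r = 0.506 without saline female 1, saline female 2 and oxytocin male 6. Drd1 and Htr1a passed in TPM (0.567), by rank (0.555) and without saline female 1 and oxytocin male 3 (0.601), and ranged from 0.331 to 0.642 with single libraries left out. Drd2 and Ppp1r1b ranged from 0.177 to 0.692, passing without oxytocin female 6 (permutation, adjusted p = 0.045). Drd2 and Htr2a turned to −0.069 in TPM, −0.018 with library totals regressed out and −0.007 without the 2 libraries, from −0.119 to 0.139 with 1 left out. Ppp1r1b and Htr1a turned to 0.002 with totals regressed out, from −0.177 to 0.082 with 1 left out, and Drd1 and Htr2a ranged from −0.081 to 0.273. The lowest read count of a member, 54 for Drd2, limits the precision of its level in that library.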
